A study of Mus musculus with 8 samples.

Results

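The genes described here are 10 that mark mast cells and basophils, out of 22180 genes that the arrays name singly. They are the transcription factor genes Gata2 and Mitf, the IgE receptor genes Fcer1a and Ms4a2, the histamine-forming enzyme gene Hdc, and the granule protease genes Cpa3, Mcpt8, Prss34, Tpsb2 and Cma1. Each had 1 probe set that carries its symbol alone, so no choice between probe sets was needed. They were measured in wild-type dendritic cells grown from the bone marrow of female C57BL/6 mice, in 4 experiments run apart from each other (BC, D2, E and I). Every time the cells grew with GM-CSF (20 ng/ml) for 7 days at 21% oxygen, and CD11c-positive cells were then taken out on magnetic beads to over 98% purity. After 2 days at 2% oxygen with GM-CSF, 1 culture received stem cell factor (SCF, 100 ng/ml) for 6 hours, and the other stayed in medium for the same time. This gave 4 SCF arrays and 4 medium arrays in 4 pairs, and every group shares the low oxygen and the GM-CSF. How many mice gave the marrow of an experiment is not given in the sources used here.

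Mast cells and basophils are granule-bearing cells of allergic and antiparasite responses. Both bind IgE through a high-affinity receptor, whose alpha chain (Fcer1a) binds the antibody and whose beta chain (Ms4a2) amplifies the signal. SCF acts on the receptor tyrosine kinase Kit, and mast cells depend on this signal to develop and survive. GATA2 and MITF are factors that mast cells need to switch on granule and receptor genes. Neither is confined to them, since blood progenitors use GATA2, and macrophages and osteoclasts use MITF. Bone marrow cultured with growth factors can give rise to mast cells and basophils beside dendritic cells.

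Of the 10 genes, 3 were bright enough to be tested (Mitf, Gata2 and Cpa3) and 7 were dim. The intensity filter was a mean log2 intensity of 4.05 over the 8 arrays, the median over all probe sets with a gene symbol. The files give no background level, so a dim probe set may mean absent RNA or a weak signal, and intensities of different genes cannot be ranked as RNA amounts. The conventional dendritic cell markers fixed for comparison lay above the filter for 16 of the 16 that could be measured, and their summed linear intensity lay between 10964 and 11303 on the SCF arrays and between 10672 and 11124 on the medium arrays. Macrophage and monocyte markers lay above it for 12 of 13, progenitor markers for 5 of 9 (Cd34, Kit, Gata2, Flt3 and Meis1), erythroid and megakaryocyte markers for 2 of 7, neutrophil markers for 2 of 12, eosinophil markers for 1 of 6 and lymphocyte markers for 1 of 11. The RNA of a whole culture cannot tell fewer cells of a type from less RNA per cell. The array medians lay between 13.3 and 13.9 on the linear scale.

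GATA2 binds the letters GATA in DNA, and the stretches just before the gene starts are shown because a gene above the filter and dim genes carry the same letters there. The motif searched was GATAA on either strand (TTATC when read on the other), in the 250 bases before each start in the RefSeq table of build GRCm38.p6. The table held 12 starts of 9 of the 10 genes. Of these starts 7 had the motif, which belong to 6 genes, and 22.6% of all 32851 starts in the table had it. The 120 bases before 4 starts follow, 5′ to 3′ on the gene's strand, with the motif in capitals. They lie at chr3:20242182-20242301 on the minus strand (Cpa3), chr19:11623720-11623839 on the minus strand (Ms4a2), chr17:25298274-25298393 on the plus strand (Prss34) and chr1:173227230-173227349 on the minus strand (Fcer1a).
Cpa3: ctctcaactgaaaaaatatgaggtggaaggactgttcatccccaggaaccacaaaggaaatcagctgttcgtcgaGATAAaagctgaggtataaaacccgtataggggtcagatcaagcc
Ms4a2: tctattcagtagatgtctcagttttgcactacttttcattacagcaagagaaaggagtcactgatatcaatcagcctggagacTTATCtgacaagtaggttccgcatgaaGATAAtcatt
Prss34: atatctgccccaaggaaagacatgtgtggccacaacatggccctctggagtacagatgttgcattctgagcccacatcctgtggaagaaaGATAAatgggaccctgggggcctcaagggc
Fcer1a: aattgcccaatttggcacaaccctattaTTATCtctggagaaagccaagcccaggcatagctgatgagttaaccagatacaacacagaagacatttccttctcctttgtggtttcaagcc

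The motif began 45 bases before the start of Cpa3, 30 before that of Prss34 and 92 before that of Fcer1a. Ms4a2 had it 3 times, at 224, 37 and 10 bases. Cma1 had it once, 194 bases before its start, and Mitf had it before 2 of its 3 starts. Gata2, Hdc and Mcpt8 had no match in these windows. Cpa3 was above the intensity filter, and Ms4a2, Prss34, Fcer1a and Cma1 were dim, so bright and dim genes both held the letters. A match is only a match of letters, and no binding was measured here.

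The comparison of SCF with medium asks which genes of hypoxic dendritic cells respond to the Kit ligand within 6 hours. Gata2 and Mitf were lower with SCF in 4 of 4 experiments, at fold changes of 0.914 and 0.911, while Cpa3 showed no common direction. At an adjusted p of 0.05 the limma fit, blocked by experiment, called 0 of the 3 and 0% of the 12668 probe sets tested. Being lower in all 4 experiments was true of 6.44% of the tested probe sets, which is the figure to read beside these 2 of 3.

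Markers of other cells were set beside them. Of the 12 macrophage and monocyte markers tested 10 were below 0 with SCF, at a median log2 fold change of −0.05. Mertk (−0.20) and Adgre1 (−0.08) were lower in 4 of 4 experiments, and Cx3cr1 (0.13) was higher in 4 of 4. Many differences were largest in BC and of the other sign in D2, as for Fcgr1 (−0.39 in BC and 0.24 in D2) and Ccr2 (−0.47 and 0.14). Mertk was at −0.46 in BC and between −0.14 and −0.09 in the other experiments. The summed intensity of that list was higher with SCF in 2 of 4 pairs. Of the 16 conventional dendritic cell markers 14 were above 0, at a median of 0.04, or 10 with array medians equalized. Their sum, taken without equalizing the medians, was higher with SCF in 4 of 4 pairs, in E only by 11142 against 11124. Of the 5 progenitor markers tested 3 were below 0, namely Cd34, Kit (−0.04) and Gata2 itself. Meis1 (0.15) and Flt3 (0.04), the latter also among the dendritic cell markers, were above. Cd34 was at −0.14 and lower in 4 of 4, but its mean log2 intensity of 4.06 barely reached the filter of 4.05. By limma 0 of these markers passed the adjusted threshold, and their part in the levels of Gata2 and Mitf was not tested.

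Mitf, a factor of mast cells, melanocytes and macrophages, had a log2 intensity with SCF of 6.93 in I, 7.25 in E, 7.08 in D2 and 6.76 in BC. In medium it was 6.98 in I, 7.38 in E, 7.17 in D2 and 7.02 in BC. Each SCF array lay below its own medium array, but the groups overlapped, because experiments differed more than treatments. The means were 7.00 ± 0.21 with SCF and 7.14 ± 0.18 in medium (SD, n = 4 each). On the log2 scale the fitted change was −0.13, with an SE of 0.06 and a 95% interval from −0.26 to −0.0048 (limma adjusted p = 0.945). Mitf was the 1 member at an unadjusted p under 0.05, as were 4.21% of tested probe sets.

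Gata2, a factor of progenitors, mast cells and basophils, stood at a log2 intensity of 4.91 in I, 5.16 in E, 4.95 in D2 and 5.21 in BC with SCF. In medium it was 4.96 in I, 5.19 in E, 5.12 in D2 and 5.49 in BC. The SCF array was lower in every pair, by most in BC and D2 (differences of −0.27 and −0.17) and by little in E and I (−0.03 and −0.05). The means were 5.06 ± 0.15 with SCF and 5.19 ± 0.22 in medium (SD, n = 4 each), and the groups overlapped. Its fitted log2 change was −0.13, with an SE of 0.06 and an interval from −0.27 to 0.01 (limma adjusted p = 0.945), and it was −0.08 without BC. For Gata2 and for Mitf an exact permutation test that flips the signs of the 4 paired differences (two-sided) gave p = 0.125, the smallest that 4 pairs allow.

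Cpa3, the carboxypeptidase stored in mast cell granules and also made by basophils, was the single granule gene of the 5 above the filter. With SCF its log2 intensity was 4.76 in I, 4.54 in E, 3.90 in D2 and 4.98 in BC. In medium it was 4.87 in I, 4.15 in E, 4.12 in D2 and 5.07 in BC. SCF arrays were lower in BC, D2 and I and higher in E, where the difference was 0.39. The means were 4.55 ± 0.46 with SCF and 4.55 ± 0.49 in medium (SD, n = 4 each). The fitted log2 change was −0.0069, with an SE of 0.10 and an interval from −0.24 to 0.22 (limma adjusted p = 0.999). It turned to 0.02 without BC, 0.06 without D2 and 0.03 without I, and was −0.14 without E.

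**Figure D1:**
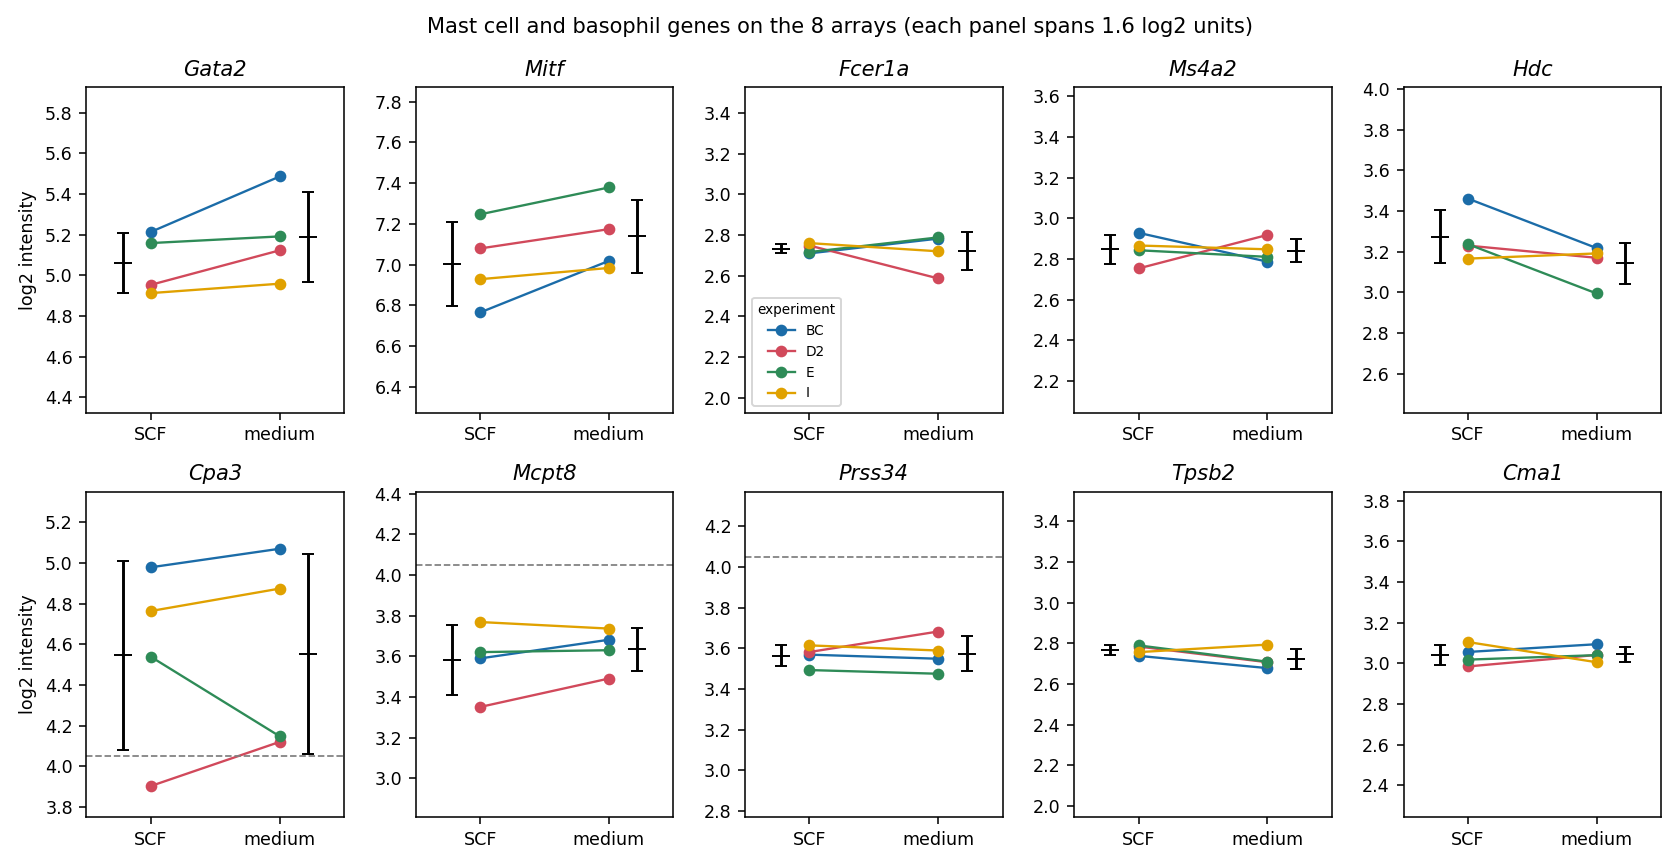
Log2 intensity of the 10 genes on the 4 SCF and 4 medium arrays, with a line joining the arrays of an experiment, black bars for the mean and SD of each group, and a dashed line at the filter of 4.05 where it falls within the panel. Mitf and Gata2 slope the same way in 4 of 4 experiments, and Cpa3 spans 3.90 to 5.07 with most of the spread between experiments.

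The 7 dim genes lay between 2.59 and 3.77 on every array, below the filter of 4.05. In a limma fit with no filter 0 of the 7 passed, as 0% of its 25335 probe sets did. At an unadjusted p under 0.05 there were also 0 of the 7, beside 3.38% of those probe sets. The IgE receptor genes lay between 2.59 and 2.93 on the 8 arrays. Fcer1a averaged 2.73 ± 0.02 with SCF and 2.72 ± 0.09 in medium, and its 8 arrays spanned 0.20 on the log2 scale. Ms4a2 averaged 2.85 ± 0.07 with SCF and 2.84 ± 0.06 in medium (SD, n = 4 each). Fcer1g, the signalling chain that this receptor shares with Fc gamma receptors of myeloid cells, was bright at a mean log2 intensity of 10.41 over the 8 arrays. It was singled out after its values were seen.

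Hdc, whose enzyme makes histamine from histidine, had the largest fitted increase among the dim genes. With SCF it was at 3.17 in I, 3.24 in E, 3.23 in D2 and 3.46 in BC, and in medium at 3.19 in I, 2.99 in E, 3.17 in D2 and 3.22 in BC. SCF arrays were higher in 3 of 4 experiments, by 0.24 in BC and 0.24 in E, and the groups overlapped. The fitted log2 change was 0.13, with an SE of 0.06 and an interval from −0.02 to 0.28 (limma adjusted p = 1.000, no filter), and it lay above 0 whichever experiment was left out. All 8 values lie in the dim range, where a difference on the log2 scale rests on a small difference in signal.

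Mcpt8, a protease typical of mouse basophils, averaged 3.58 ± 0.17 with SCF and 3.64 ± 0.11 in medium (SD, n = 4 each), a log2 fold change of −0.05 (95% interval −0.18 to 0.07). Prss34, the other basophil-associated protease, averaged 3.56 ± 0.05 with SCF and 3.57 ± 0.09 in medium, with a log2 fold change of −0.0093. The tryptase gene Tpsb2 averaged 2.77 ± 0.02 with SCF and 2.72 ± 0.05 in medium, a log2 fold change of 0.05. The chymase gene Cma1 averaged 3.04 ± 0.05 with SCF and 3.05 ± 0.04 in medium, a log2 fold change of −0.0043. For the 7 dim genes the 95% interval of the fold change lay within 1.21-fold in either direction. That bounds the change of the measured signal, which at this brightness can be mostly background, and not that of the RNA.

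**Figure D2:**
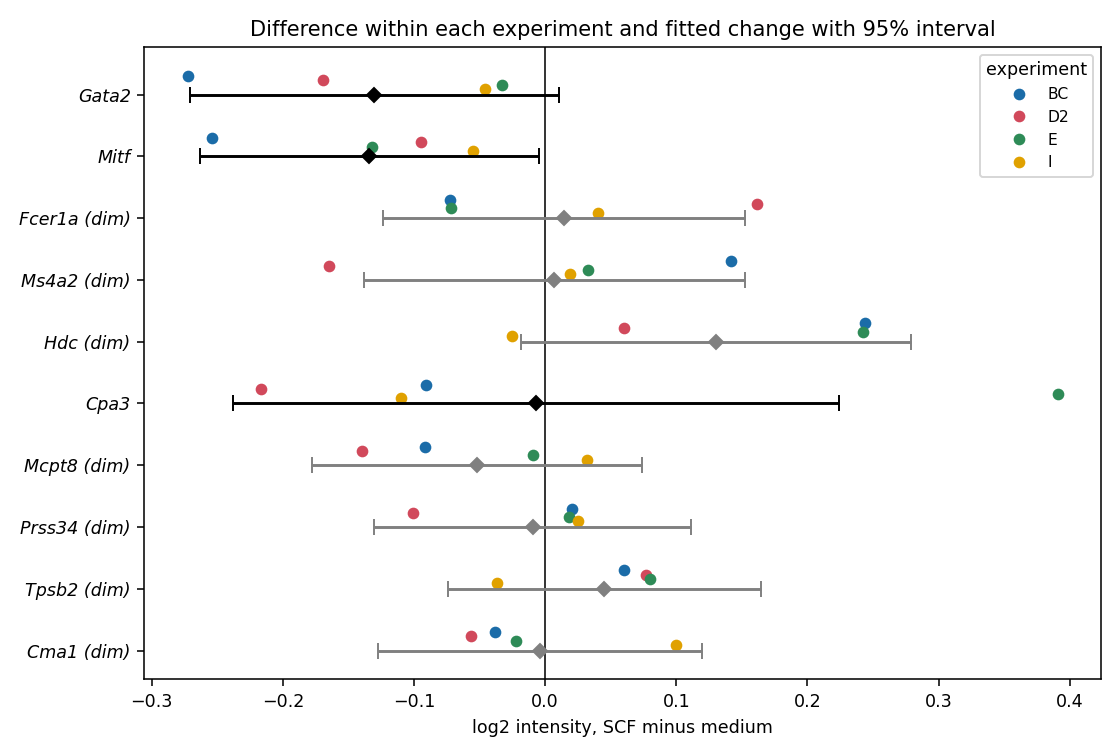
SCF minus medium difference in log2 intensity for each experiment (coloured points) and the limma log2 fold change with its 95% interval (diamonds and bars, black for genes above the filter and grey for dim genes, the latter from the fit with no filter). The interval of Mitf ends just below 0 at −0.0048, and the Cpa3 point of experiment E stands alone at 0.39.

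The 4 experiments are 4 separate cell preparations, and the same fit tested whether a gene's level differed among them beyond the spread left within them. Cpa3 passed this moderated F test (limma adjusted p = 0.0333), while Mitf (0.0677) and Gata2 (0.0908) did not. Of all tested probe sets 3.35% passed. Cpa3 averaged 5.02 in BC, 4.82 in I, 4.34 in E and 4.01 in D2 over the 2 arrays of each experiment. BC stood above D2 by 1.01 on the log2 scale (95% interval 0.69 to 1.34), a difference of signals only, since the D2 mean lies below the filter of 4.05 and may be partly background. BC and I did not differ beyond their spread (0.21, interval −0.12 to 0.53). The intervals of the other 5 of 6 pairs of experiments lay off 0, that of E over D2 only just (from 0.0049), without adjustment for the 6. The call of Cpa3 was lost without BC (limma adjusted p = 0.0966), without D2 (0.116) and without I (0.0529), and held without E (0.0291).

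Kit, the SCF receptor, had a mean log2 intensity of 6.96 in I, 6.88 in BC, 6.65 in E and 6.41 in D2. It passed the F test as well (limma adjusted p = 0.0412), but with any 1 experiment left out it did not (0.0672 without E to 0.199 without D2). As with Cpa3, BC and I were high and D2 was the lowest. Mcpt8 averaged 3.75 in I, 3.64 in BC, 3.63 in E and 3.42 in D2. The dim genes shared no single order. Prss34 was highest in D2 (3.63) and lowest in E (3.48), and Hdc was highest in BC (3.34) and lowest in E (3.12). Of the 7 dim genes 3 were lowest in D2 (Mcpt8, Fcer1a and Cma1), 3 in E and 1 in BC. In the fit with no filter, where 0.766% of probe sets passed, 0 of the 7 passed (limma adjusted p from 0.219 for Mcpt8 to 0.997 for Ms4a2).

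Both factor genes ran in other orders. Gata2 averaged 5.35 in BC, 5.18 in E, 5.04 in D2 and 4.94 in I, and 3 of its 6 pairs of experiments had an interval off 0. Mitf averaged 7.31 in E, 7.13 in D2, 6.96 in I and 6.89 in BC, and 4 of its 6 pairs did, that of E over D2 only just (from 0.0035). The intervals of both genes are not adjusted for the 6 pairs, and neither gene passed the F test. Macrophage and monocyte markers also differed among experiments, with 5 of the 12 tested passing the F test, beside 3.35% of all probe sets. Without E 0 of the 12 passed, and 0.300% of all probe sets did. Their summed linear intensity was 4185 in I, 4774 in E, 4268 in D2 and 3714 in BC with SCF, against 4114 in I, 5067 in E, 3974 in D2 and 4170 in BC in medium. It was highest in E, as Mitf was.

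**Figure D3:**
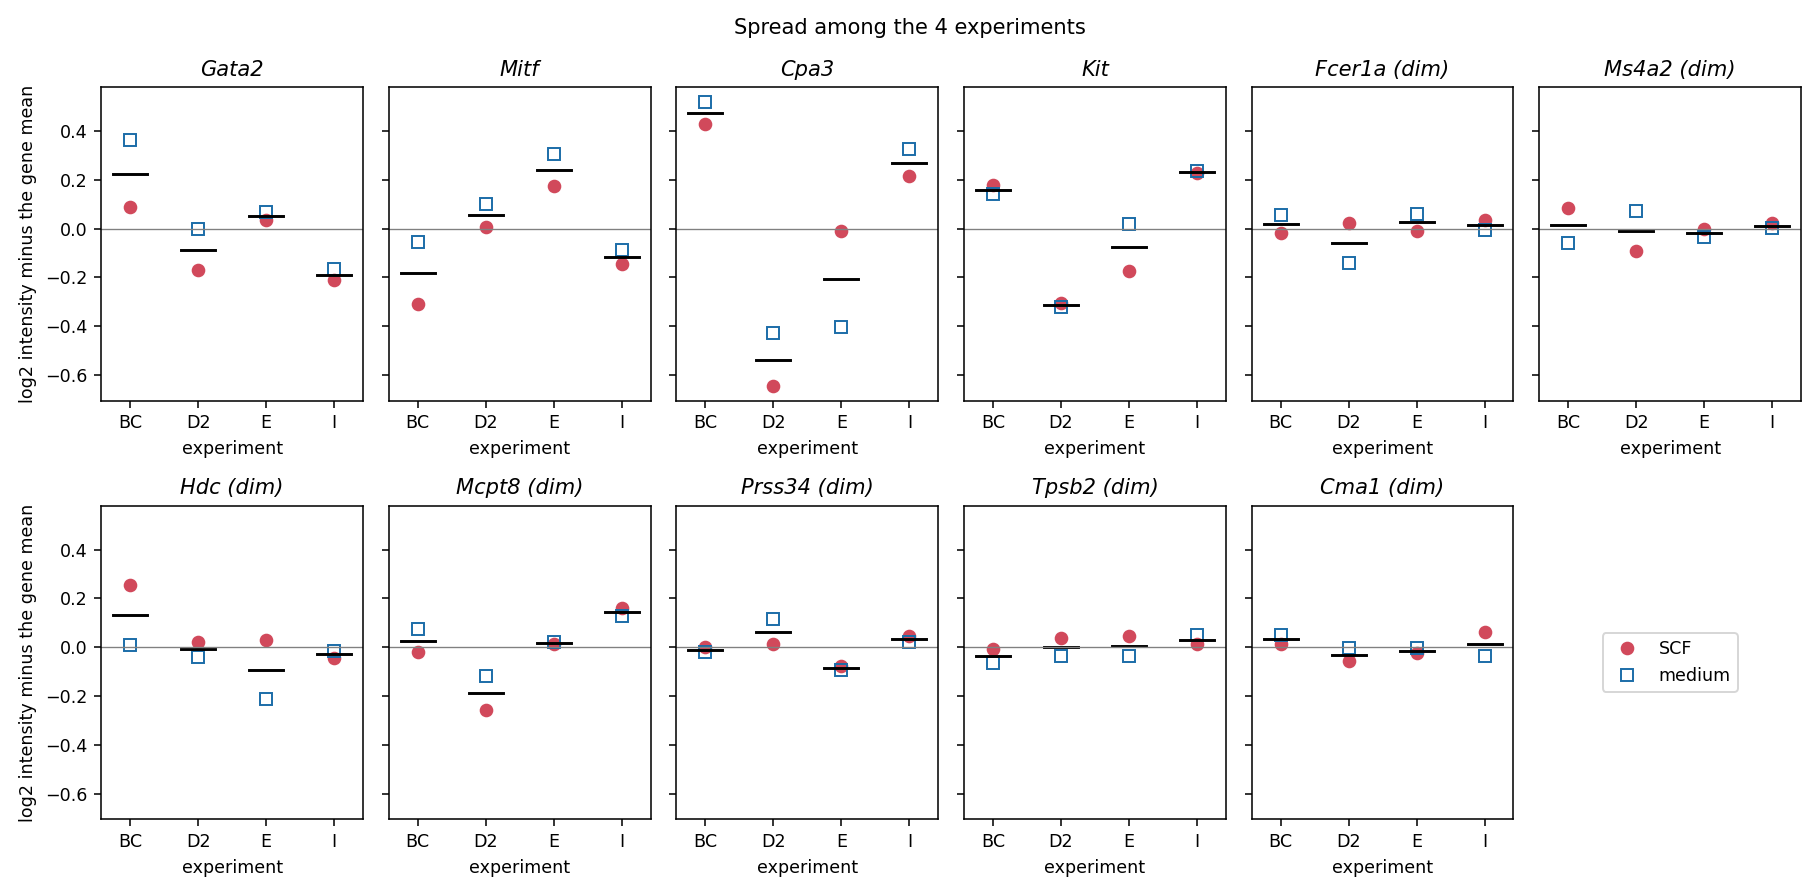
Log2 intensity of the 10 genes and Kit in each experiment, as the deviation from the gene's mean over 8 arrays, with circles for SCF, squares for medium and a bar for the experiment mean. Cpa3 and Kit are lowest in D2, Gata2 is highest in BC and Mitf is highest in E, and of the 7 dim genes 3 are lowest in D2, 3 in E and 1 in BC.

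The genes most like each bright member were taken by Pearson's r of log2 intensity over the 8 arrays among 11351 genes, as a description, since the arrays come from only 4 preparations. Cpa3 was most like Ago1 (r = 0.98), Cdc42ep2 (0.97) and Fam110a (0.97). Gata2 was most like Gm15448 (r = 0.99), Mrps27 (0.96) and Atic (0.96). Mitf was most like Lgals8 (r = 0.99), Eif2ak2 (0.99) and Ifi204 (0.98). None of these is on the lists of related genes described below, but those hold only 98 of the 11351 genes, so this says little. Kit, named in any case, had r = 0.83 with Cpa3, 0.09 with Gata2 and −0.55 with Mitf. Fam110a and Ifi204 passed the test among experiments (limma adjusted p = 0.0428 and 0.00537), Fam110a in no fit that left out 1 experiment and Ifi204 in each but the one without E (0.0560).

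Around the 10 genes, 6 lists of related genes held 135 symbols, of which 128 had a probe set of their own and 98 lay above the filter. With SCF 0 of the 98 passed in either direction, as 0 of all tested probe sets did. Their median log2 fold change was −0.0028, with 47 above 0 and 51 below, beside −0.0011 over all 11351 genes. An unadjusted p under 0.05 was reached by 5 of the 98, beside 4.21% of all probe sets. These were the receptor genes Cd200r1, Il3ra and Milr1, the chemokine gene Ccl4 and the chondroitin sulfate enzyme gene Csgalnact2.

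Among granule genes, 11 of 22 lay above the filter and 11 were dim. The dim ones were mostly proteases, among them the mast cell protease genes Mcpt1 (mean log2 3.49), Mcpt2 (2.87) and Mcpt4 (2.50), and the tryptase gene Tpsab1 (3.42). Most of the bright ones serve granules and lysosomes of many cells, as does Srgn, the proteoglycan core of granules, at a log2 fold change of 0.05 (SE 0.05). Unc13d, which primes granules for release, was at 0.09 (SE 0.06). The 11 tested log2 fold changes lay between −0.03 and 0.09. Among experiments 0 of the 11 differed, beside 3.52% of all genes.

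Of 21 measured receptor genes 12 were tested, with 3 above 0 and 9 below. Cd200r1, an inhibitory receptor of myeloid cells, had the largest decrease, −0.25 (SE 0.07; limma adjusted p = 0.945), and was lower in 4 of 4 experiments. Milr1, an inhibitory receptor named for mast cells, was lower in 4 of 4 at −0.18 (SE 0.07). Its difference was −0.45 in BC and between −0.10 and −0.09 in the other experiments. Il3ra, the alpha chain of the receptor for interleukin 3, a basophil growth factor, was higher in 4 of 4 at 0.13 (SE 0.05), as 6.43% of tested probe sets were. In this list 3 of the 12 differed among experiments (Kit, Cd200r1 and Pilra), beside 3.52% of all genes. Without E 0 of the 3 did, beside 0.300% of all probe sets. Kit and Pilra failed with any 1 experiment left out, and Cd200r1 passed only without BC (limma adjusted p = 0.0398). The receptor genes Mrgprb1, Mrgprb2 and Ccr3 were dim.

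The signalling proteins below the IgE receptor, most of which serve other myeloid receptors too, were above the filter for 26 of 26 measured. Of these 15 were above 0 and 11 below, and the median log2 fold change was 0.0036. Rasgrp1, an activator of Ras, had the smallest p of the list, with a log2 fold change of 0.10 (SE 0.06, limma adjusted p = 0.945). The phospholipase gene Plcg1 and the protein kinase C gene Prkcb differed among experiments (limma adjusted p = 0.0425 and 0.0416). Plcg1 averaged 7.37 in BC and 6.84 in E, and Prkcb averaged 8.90 in D2 and 8.33 in I.

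Of the partner factors of GATA2 and MITF, 21 of 24 were tested, with 12 above 0 and 9 below. Gata1, which acts with Gata2 in mast cells and basophils, was dim at a mean log2 intensity of 3.25. Tfec, a relative of Mitf, stood at −0.12 (SE 0.07) with SCF, from −0.37 in BC to 0.03 in I, and differed among experiments (limma adjusted p = 0.0361). It averaged 8.47 in E, 8.30 in D2, 8.05 in I and 7.71 in BC, the same order as Mitf. Cebpb, a factor of myeloid cells, stood at −0.14 (SE 0.07) with SCF, from −0.40 in BC to −0.0089 in E. It also differed among experiments (limma adjusted p = 0.0328), at 6.94 in E and 6.11 in BC.

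Lipid mediator and cytokine genes were tested for 12 of 17 measured, with 3 above 0 and 9 below and a median of −0.05. Ccl4 was higher with SCF in 4 of 4 experiments at 0.15 (SE 0.06), and Ltc4s, the enzyme that makes leukotriene C4, stood at 0.13 (SE 0.07). Ccl4 and Csf1 differed among experiments (limma adjusted p = 0.0271 for each), Csf1 with 7.51 in E and 6.67 in I. The cytokine genes Il4, Il3, Il5 and Il9 were dim. For the enzymes that build heparin and related chains, 16 of 18 were tested, 8 above 0 and 8 below. Csgalnact2 was lower with SCF in 4 of 4 at −0.15 (SE 0.06), with −0.35 in BC and between −0.14 and −0.05 in the other experiments. Xylt1, which starts the chains, stood at −0.13 (SE 0.06). Among experiments 0 of the 16 differed, beside 3.52% of all genes.

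Over the 6 lists 9 of 98 genes, or 9.18%, differed among experiments, beside 3.52% of all genes. Each of these 9 calls was lost without E, and the count over the 98 was 0 without E, 2 without I, 2 without D2 and 4 without BC. Calls over all tested probe sets fell as well, to 0.300% without E, 1.40% without I, 0.868% without D2 and 1.17% without BC.

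**Figure D4:**
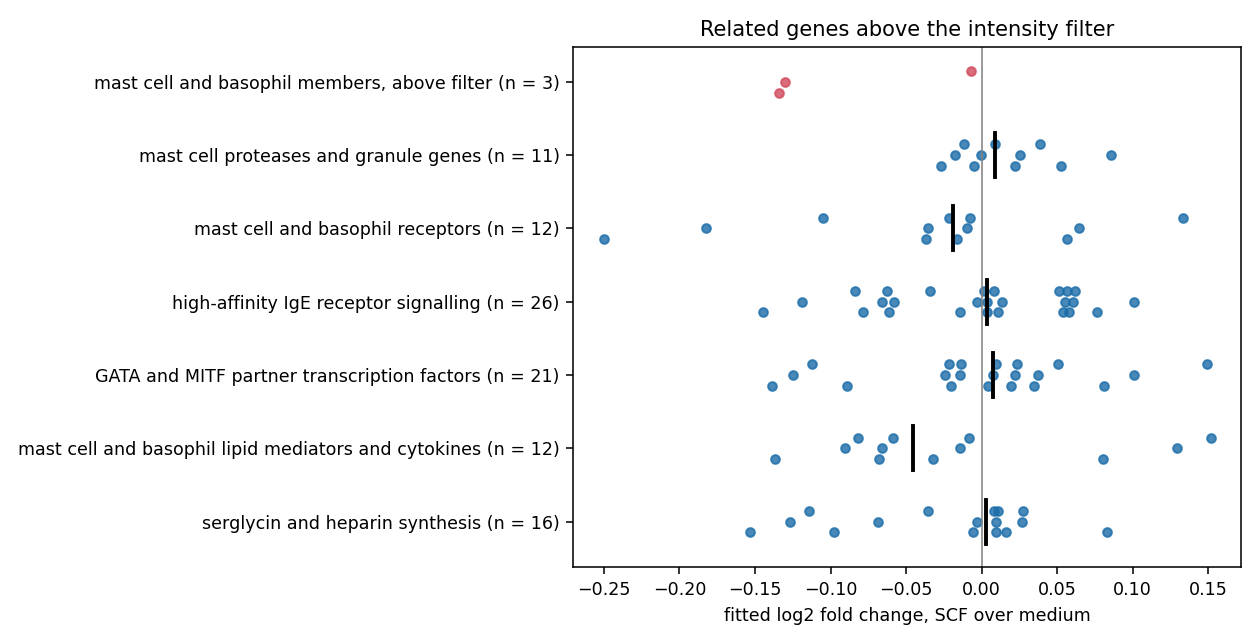
Limma log2 fold change, SCF over medium, of the 3 members and 98 related genes above the intensity filter (1 point per gene, rows by list, black bars for the list medians). Points lie between −0.25 (Cd200r1) and 0.15, and 0 of them passed the adjusted threshold.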

How the data were processed

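The authors deposited RMA intensities, per the submitters' processing notes, 1 for each probe set on each array; the sources used here give no version or filter. Their values showed a linear scale, so they were log2-transformed without a pseudocount and not normalized again. Of the 41345 probe sets, 23521 had 1 symbol in the platform annotation, 1814 several and 16010 none. All 10 members matched the RefSeq table (GRCm38.p6, used for names). Probe sets with a symbol were tested where their mean log2 reached the median of 4.05, which left 12668.

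Groups and experiments come from the titles. The series' design text says that each experiment's cells were purified together and then split, so arrays are paired; same-experiment arrays correlated at 0.36 to 0.46 after removal of group means. SCF was compared with medium, and experiments with each other (F test), by limma 3.58.1 (R 4.3.3) with experiment and treatment as terms, Benjamini-Hochberg adjustment over all tested probe sets and a threshold of 0.05. Both tests were run on simulated data with independent errors. The SCF changes planted there were larger than those fitted for the members, so these runs do not show the power for changes this small. The fit has 7.39 degrees of freedom with its prior, and 4 arrays per group limit the precision.

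The members and lists were chosen with earlier results of these data known. Named were the 10 members, Kit, the 3 genes most like each bright member, and from each related list up to 4 genes with the smallest p in each test and those passing where 5 or fewer passed; further names were chosen after their values were seen. Alternatives changed the filter, the normalization, a pseudocount of 16, the probe sets per gene, the variance model, the block and the experiments used. Promoter sequences are from RefSeq.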

Additional observations from a re-analysis of the deposited data

How the results depend on the processing

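For SCF against medium, 0 members and 0 related genes passed under each of 14 alternatives, among them the fit without the replicate block, which also called 0. Gata2 and Mitf stayed below 0 in all 14, between −0.16 and −0.08 for Gata2 and between −0.16 and −0.09 for Mitf, with limma adjusted p from 0.811 to 1.000. The number of members that differ among experiments was 2 with the stricter filter (Gata2 at an adjusted p of 0.0460 and Mitf at 0.0314, Cpa3 being untested there), 2 with a pseudocount of 16 and 2 with a variance trend (Cpa3 and Mitf in both), and 0 to 1 when 1 experiment was left out. Related genes that differ among experiments numbered 4 with no filter, 14 with the stricter filter, 16 with the pseudocount and 20 with the variance trend. With 1 experiment left out they numbered 0 to 4. Of all tested probe sets the reported fit called 424 (3.35%). Those 4 settings called 194 (0.766%), 1022 (11.1%), 1210 (9.55%) and 1527 (12.1%), so the counts of members and related genes moved along with the whole series. With 1 experiment left out 38 to 177 were called (0.300% to 1.40%). The cause of these shifts was not tested. The filter settings also change how many probe sets are tested, and leaving out 1 experiment removes arrays, while the pseudocount and the variance trend change neither. For dim genes, settings added after seeing the data turned signs near 0. With array medians equalized Fcer1a was at −0.0049 and Ms4a2 at −0.012, and after a repeated quantile normalization Ms4a2 was at −0.0067. Leaving out 1 experiment gave ranges of −0.139 to 0.0631 for Cpa3, −0.0348 to 0.0433 for Fcer1a, −0.0379 to 0.0642 for Ms4a2, −0.0209 to 0.0212 for Prss34 and −0.0389 to 0.0131 for Cma1. Signal over background is unknown, which limits what can be said of the 7 dim genes.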
